A study of Mus musculus with 3 samples.

Results

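Ribosome biogenesis genes encode the nucleolar proteins that make ribosomal RNA and build the ribosomal subunits. The set described here is a fixed list of 42 such genes, chosen by name and with earlier results of these data known. It holds the core proteins of the small nucleolar ribonucleoproteins (snoRNPs) and nucleolar chaperones. It also holds RNA polymerase I subunits and partners, and assembly factors of the small and large subunits. All 42 had a probe on the array, 56 probes in all of the 27507 that could be named. Of the 42 genes, 41 were measured on every array, among 13161 named genes measured on at least 1 array. The remaining member, Utp18, had 1 probe, which stayed near background throughout.

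The samples were mouse CD4+ T cells collected 2 days after stimulation, with 1 array for each of 3 genotypes: Rbpj-/- (Rbpj KO), Dll1-/- (Dll1 KO) and wild type (WT). All 3 came from female C57BL/6 mice aged 8 weeks. Dll1, a transmembrane protein, activates Notch receptors on neighbouring cells, and Notch acts on transcription through Rbpj, which binds DNA. Which cells of the mice carried each deletion, whether cells of several mice were pooled and how the cells were stimulated are not stated in the labels. Each group being a single array, the differences carry no replicate error, so no test was made and no p-value is given.

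Making ribosomes starts in the nucleolus, where RNA polymerase I transcribes one long precursor of the ribosomal RNAs. Box C/D snoRNPs methylate the ribose of chosen bases, box H/ACA snoRNPs convert chosen uridines to pseudouridine, and many assembly factors fold and cleave the precursor while ribosomal proteins are added. T cells are small and make few ribosomes at rest, and they enlarge their nucleoli and raise ribosome production after stimulation, in which the transcription factor Myc takes part.

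A level below is the log2 of the scanner's background-subtracted signal minus the 75th percentile of that array, so 0 is the array's 75th percentile over its probes. Levels of one gene are compared between arrays. Between genes they serve only to choose members to name and to group genes by brightness, since each probe has its own response. Sums of marker signals are for the same reason weighted to bright probes. The error given with a difference was carried over from the scanner software's error per spot. It ranged from 0.06 to 0.22 log2 over the members for the Rbpj KO against WT, and it covers error within an array only, not differences between mice. For members read by 1 spot it was between 0.20 and 0.22 whichever the gene, and more spots or probes made it smaller. It is therefore not a scatter measured for each gene. Probes of one gene could differ by more, as those of Pes1 did by 0.77 for the Rbpj KO against WT.

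The 3 arrays lay on 1 slide with 1 scan time. Between 46.6% and 50.1% of probes were well above background and 0 spots were saturated. The 75th percentile itself was 7.14 on the Rbpj KO array, 7.28 on the Dll1 KO array and 7.47 on the WT array (log2 signal). All 10 T cell markers examined were well above background on each array. Rbpj had a level of 0.53 on the Rbpj KO array, 1.32 on the Dll1 KO array and 1.04 on the WT array, and where its probes lie relative to the deleted part is not stated in the labels. Dll1 itself could not be read above background on these arrays, so it gives no check of the Dll1 KO.

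Most ribosome biogenesis genes were lower on the Rbpj KO array than on the WT array. Of the 41 measured members, 38 lay below 0 in the Rbpj KO minus WT difference, where 60.2% of all 11592 genes did. At least 1.2-fold lower were 26 of the 41, against 24.2% of all genes, and 0 were at least 1.2-fold higher, against 15.2%. The median difference of the members was -0.31 log2, against -0.07 for all genes. Sizes were modest: 3 members (Nop56, Nop16 and Dkc1) were at least 1.5-fold lower, against 6.97% of all genes, and 0 were 2-fold apart either way, against 3.56%. In bulk RNA, fewer cells of a type and less RNA per cell cannot be told apart.

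**Figure D1:**
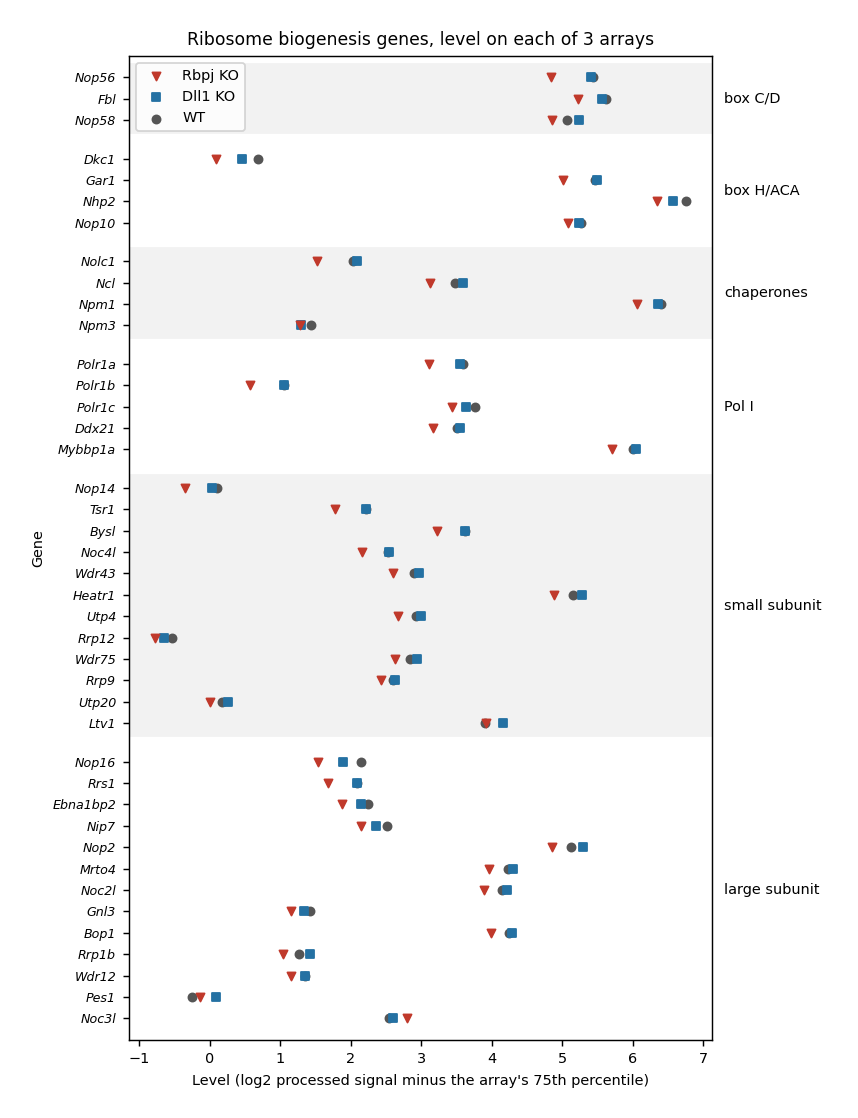
Level of each of 41 ribosome biogenesis genes (rows, grouped by role) on the Rbpj KO, Dll1 KO and WT arrays, as log2 signal minus the array's 75th percentile; 1 point is 1 array and there are no error bars because each group has 1 array. The Rbpj KO point lies left of both others for 38 of 41 genes.

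The Rbpj KO array gave the lowest of the 3 levels for 38 of 41 members, against 47.4% of the 11553 genes measured on all 3 arrays. The WT array was lowest for Noc3l, Pes1 and Ltv1, and the Dll1 KO array for 0 members. Highest was the Rbpj KO array for 1 member, the Dll1 KO array for 21 and the WT array for 19; shares of all genes by highest array are not given. The Dll1 KO and WT levels were within 1.2-fold of each other for 40 of the 41.

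The box C/D proteins were lower on the Rbpj KO array, with a median difference from WT of -0.40 over 3 genes. Nop56, a core scaffold protein of these particles, had a level of 4.84 on the Rbpj KO array, 5.41 on the Dll1 KO array and 5.44 on the WT array. The Rbpj KO array stood apart and the others were within 0.04 of each other. For the Rbpj KO the difference of Nop56 from WT was -0.60 ± 0.14, or 1.52-fold lower. These are means over 2 probes, which gave -0.71 and -0.49 for the Rbpj KO against WT. For the Dll1 KO against WT they had opposite signs, -0.19 and 0.12. Fbl, fibrillarin, the methyltransferase of the particle, had 5.23 on the Rbpj KO array, 5.56 on the Dll1 KO array and 5.62 on the WT array, a Rbpj KO minus WT difference of -0.40 ± 0.20. Nop58, the partner of Nop56, had 4.85 on the Rbpj KO array, 5.24 on the Dll1 KO array and 5.07 on the WT array. The Rbpj KO array was again lowest, but here the Dll1 KO array was above WT by 0.17, less than its error of 0.20.

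The box H/ACA proteins had a median Rbpj KO minus WT difference of -0.43 over 4 genes. Dkc1, dyskerin, the pseudouridine synthase of these particles and of telomerase, had a level of 0.09 on the Rbpj KO array, 0.45 on the Dll1 KO array and 0.68 on the WT array. The Dll1 KO array lay between the others for this gene, and the Rbpj KO was 1.51-fold below WT (-0.59 ± 0.21). Gar1, another core protein, had 5.02 on the Rbpj KO array against 5.50 on the Dll1 KO array and 5.47 on the WT array. The Rbpj KO array was below both by more than the error of 0.20. Nhp2 had 6.35 on the Rbpj KO array, 6.58 on the Dll1 KO array and 6.75 on the WT array. The smallest core protein, Nop10, differed by -0.18 between the Rbpj KO and WT, within its error of 0.20.

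Of the nucleolar chaperones and scaffolds, Nolc1, which accompanies snoRNPs to the nucleolus, differed most. Its level was 1.52 on the Rbpj KO array, 2.08 on the Dll1 KO array and 2.04 on the WT array, with the Rbpj KO 1.43-fold below WT (-0.51 ± 0.16). Ncl, nucleolin, had 3.13 on the Rbpj KO array, 3.60 on the Dll1 KO array and 3.48 on the WT array. Its 2 probes gave -0.55 and -0.14 for the Rbpj KO against WT, so the direction was shared and the size was not. Npm1, nucleophosmin, is a chaperone of the nucleolus that also has processed pseudogenes, so its signal may be shared with copies. It had 6.06 on the Rbpj KO array, 6.36 on the Dll1 KO array and 6.40 on the WT array, and its 5 probes lay between -0.41 and -0.23 for the Rbpj KO against WT. Npm3, a relative of Npm1, had 1.28 on the Rbpj KO array, 1.30 on the Dll1 KO array and 1.43 on the WT array, a spread within its error of 0.20.

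All 5 genes of RNA polymerase I and its partners lay 1.2-fold or more below WT on the Rbpj KO array, against 24.2% of all genes. Of 12 further polymerase I genes, part of the wider list described below, 4 did (33.3%). Polr1a, the largest subunit, had a level of 3.11 on the Rbpj KO array, 3.55 on the Dll1 KO array and 3.60 on the WT array, and the Rbpj KO was 1.41-fold below WT (-0.49 ± 0.20). Polr1b, which forms the catalytic core with it, had 0.58 on the Rbpj KO array, 1.05 on the Dll1 KO array and 1.05 on the WT array (-0.48 ± 0.21 for the Rbpj KO against WT). For both subunits the Dll1 KO and WT arrays were within 0.06 of each other. Polr1c, a subunit shared with RNA polymerase III, was printed as 10 spots and had the smallest error: 3.43 on the Rbpj KO array, 3.64 on the Dll1 KO array and 3.76 on the WT array (-0.33 ± 0.06 for the Rbpj KO against WT). Mybbp1a, a nucleolar Myb-binding protein, had 5.70 on the Rbpj KO array, 6.04 on the Dll1 KO array and 6.01 on the WT array. Ddx21, an RNA helicase of the nucleolus, differed by -0.33 ± 0.14 between the Rbpj KO and WT.

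The 12 measured small subunit factors had a median Rbpj KO minus WT difference of -0.26, and 6 of them were at least 1.2-fold lower. Heatr1, a large scaffold of the small subunit processome, had a level of 4.89 on the Rbpj KO array, 5.29 on the Dll1 KO array and 5.16 on the WT array. Nop14, another processome protein, and Tsr1, a late factor that resembles a GTPase, gave -0.45 and -0.44 for the Rbpj KO against WT. Bysl, needed for late cleavage steps of the small subunit, gave -0.40, and Noc4l, the partner of Nop14, gave -0.36. The processome proteins Wdr43, Wdr75, Utp4 and Utp20, the snoRNP protein Rrp9 and Rrp12 lay between -0.30 and -0.16. Ltv1, which acts late on the small subunit, was one of the exceptions, with 3.92 on the Rbpj KO array, 4.16 on the Dll1 KO array and 3.91 on the WT array. The Utp18 probe read signals of 5.83 on the Rbpj KO array, 9.19 on the Dll1 KO array and 4.7 on the WT array, below the lowest signals well above background there (15.8, 13.6 and 19.2), so no difference is given for this processome gene.

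In the Rbpj KO minus WT difference the 13 large subunit factors spread the widest, from -0.60 for Nop16 to 0.25 for Noc3l. Their median was -0.27, and 7 of 13 were at least 1.2-fold lower (53.8%, against 24.2% of all genes). Nop16, an assembly factor of the large subunit, had a level of 1.54 on the Rbpj KO array, 1.89 on the Dll1 KO array and 2.14 on the WT array, with the Rbpj KO 1.52-fold below WT (-0.60 ± 0.20). Nop2, an RNA methyltransferase, had 4.85 on the Rbpj KO array, 5.30 on the Dll1 KO array and 5.13 on the WT array. Nip7 had 2.15 on the Rbpj KO array, 2.35 on the Dll1 KO array and 2.51 on the WT array. The assembly factors Rrs1 and Ebna1bp2 gave -0.41 and -0.37, Mrto4, a placeholder for a protein of the ribosomal stalk, -0.27, Noc2l -0.27 and the nucleolar GTPase Gnl3 (nucleostemin) -0.26 for the Rbpj KO against WT. Rrp1b had 1.04 on the Rbpj KO array, 1.42 on the Dll1 KO array and 1.26 on the WT array.

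Noc3l, a partner of Noc2l in large subunit assembly, was the 1 member above both other arrays in the Rbpj KO. It had a level of 2.80 on the Rbpj KO array, 2.60 on the Dll1 KO array and 2.55 on the WT array, with the Rbpj KO 1.19-fold above WT (0.25 ± 0.20), a sign that turned to -0.33 with spike-in scaling. Pes1 forms a complex with Bop1 and Wdr12, and the 3 genes did not share a direction. Bop1 gave -0.26 and Wdr12 -0.19 for the Rbpj KO against WT. Pes1 had -0.13 on the Rbpj KO array, 0.09 on the Dll1 KO array and -0.26 on the WT array. Its 2 probes disagreed: the brighter gave -0.26 for the Rbpj KO against WT and the dimmer, with a WT level of -2.39, gave 0.51. With the brighter probe alone Pes1 therefore lay below WT in the Rbpj KO, as it did with array median (-0.04) or spike-in (-0.46) scaling. Ltv1, level with WT in the Rbpj KO (0.01), also lay below it with array median (-0.15) or spike-in (-0.57) scaling.

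The ribosome biogenesis genes showed no common direction between the Dll1 KO and WT arrays. Of 41 measured members 19 lay below 0, against 55.7% of 11818 genes, and the median difference was 0.02 log2, against -0.03 for all genes; the sign of this median turned with array median (-0.02) or spike-in (-0.14) scaling. At least 1.2-fold lower were 0 members, against 12.3% of all genes, and at least 1.2-fold higher was 1, against 10.8%. That gene was Pes1, 1.27-fold higher (0.35 ± 0.18), where the brighter of its probes gave 0.14. After it came Ltv1 (0.26), Nop2 (0.17), Nop58 (0.17), Rrp1b (0.16) and Heatr1 (0.13). At the low end were Nop16 (-0.25), Dkc1 (-0.23), Nhp2 (-0.17), Nip7 (-0.16), Npm3 (-0.13) and Polr1c (-0.13).

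Between the knockouts the pattern of the Rbpj KO array appeared again, in a comparison that shares that array with the first. In the Rbpj KO minus Dll1 KO difference 40 of 41 members lay below 0, against 55.1% of 11800 genes. By 1.2-fold or more 28 were lower in the Rbpj KO, against 19.5% of all genes, and 0 were at least 1.2-fold higher, against 16.4%. The median was -0.34 log2, against -0.03 for all genes. Nop56 (-0.56, 1.48-fold lower) and Nolc1 (-0.56, 1.47-fold lower) were at the low end, followed by Gar1 (-0.48), Polr1b (-0.47), Ncl (-0.46) and Nop2 (-0.45). At the high end was Noc3l (0.20), which turned to -0.22 with spike-in scaling. By role the medians lay between -0.38 for the box C/D proteins, the chaperones and the polymerase I genes and -0.30 for the box H/ACA proteins and the large subunit factors, with -0.35 for the small subunit factors.

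**Figure D2:**
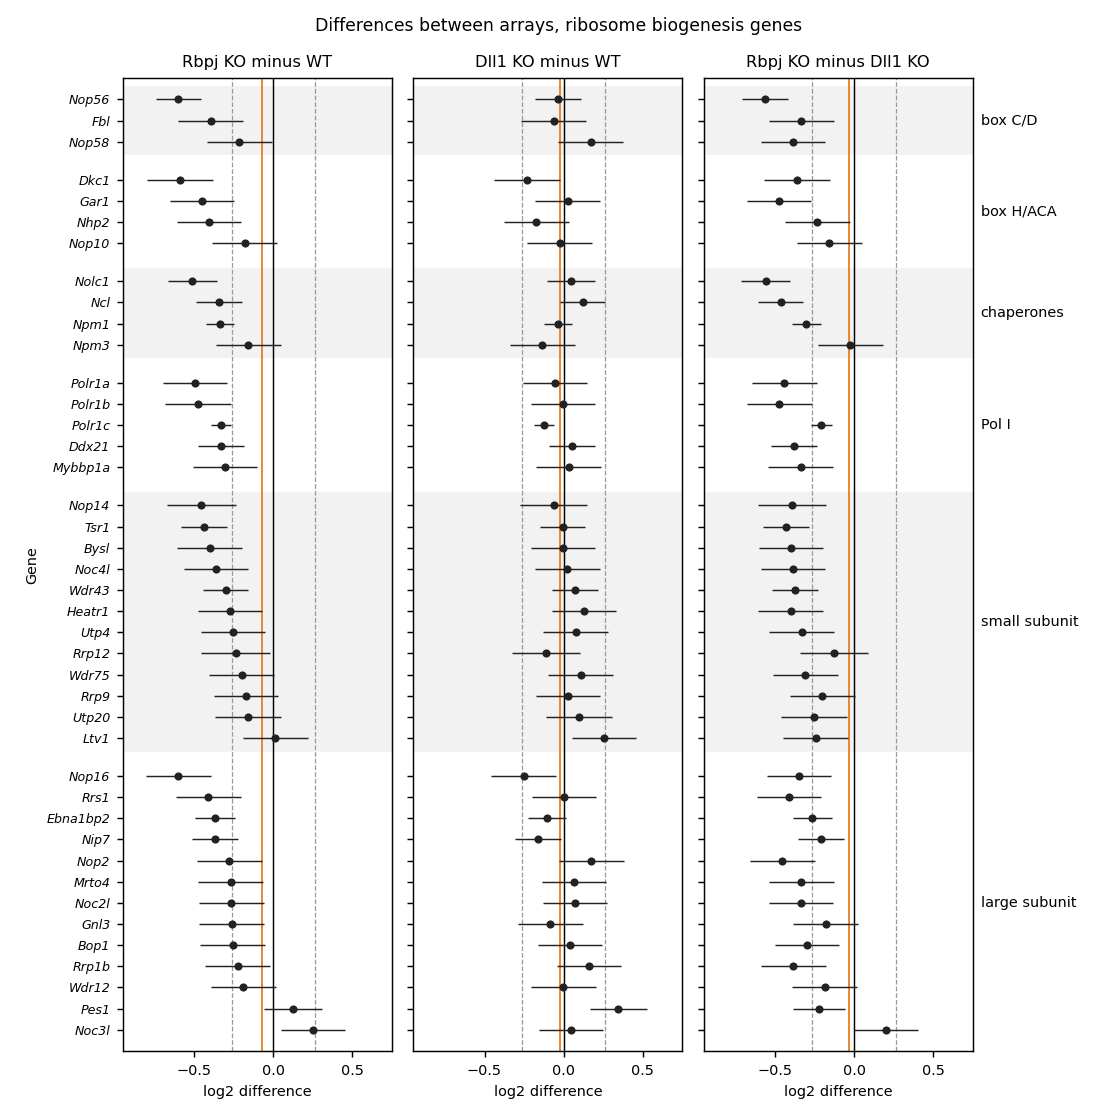
Log2 difference of each of 41 ribosome biogenesis genes, with 1 panel for the Rbpj KO minus WT, 1 for the Dll1 KO minus WT and 1 for the Rbpj KO minus the Dll1 KO; bars are the scanner software's error carried to the difference, the orange line is the median of all genes and dashed lines mark 1.2-fold. Most points lie left of 0 in the panels that hold the Rbpj KO array (38 and 40 of 41 genes) and on both sides of 0 in Dll1 KO minus WT (19 below).

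Separate probes and separate places on the array gave a further look at the same hybridisations. For the Rbpj KO against WT all probes pointed down in 9 of the 10 members that have several, with Pes1 the exception, and in 10 of 10 for the Rbpj KO against the Dll1 KO. For the Dll1 KO against WT all probes shared a sign in 2 of 10. The range between the probes of a gene had a median of 0.19 log2 for the Rbpj KO against WT and 0.30 for the Dll1 KO against WT. In rows 1 to 192 of the array 31 of 33 member probes lay below 0 for the Rbpj KO against WT (median -0.28). In rows 193 to 384 it was 20 of 21 (median -0.36). The median over all probes was -0.05 in each of these parts. Counts of probes as in this paragraph are not given for all genes.

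Genes with brighter signals as a whole lay lower on the Rbpj KO array, so the members were also read against those. Among 7446 genes with a mean level above 0, 67.4% lay below 0 in the Rbpj KO minus WT difference, with a median of -0.10; the 38 members in that range had a median of -0.32. For the Rbpj KO against the Dll1 KO the share was 61.5% with a median of -0.06, against -0.34 for the members. For the Dll1 KO against WT it was 59.0% with a median of -0.03, against 0.02.

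Promoter windows of 5 members are shown to let the sequences stand beside the values: Nop56 and Nop16, at the low end in the Rbpj KO; Noc3l, the exception; and Tsr1 and Mybbp1a, which hold both motifs searched. The windows are RefSeq's, build GRCm38.p6, 250 bases before to 50 after the gene's start, written 5′ to 3′ on the gene's strand: chr2:130274162-130274461 (+), chr13:54590025-54590324 (-), chr19:38819188-38819487 (-), chr11:74897830-74898129 (+) and chr11:72441077-72441376 (+). Capitals mark the motifs, CACGTG (the E-box bound by Myc with its partner Max, the same on both strands) and TGGGAA (the core of the site bound by Rbpj, or TTCCCA on the other strand). The motifs do not overlap each other in these windows.
Nop56: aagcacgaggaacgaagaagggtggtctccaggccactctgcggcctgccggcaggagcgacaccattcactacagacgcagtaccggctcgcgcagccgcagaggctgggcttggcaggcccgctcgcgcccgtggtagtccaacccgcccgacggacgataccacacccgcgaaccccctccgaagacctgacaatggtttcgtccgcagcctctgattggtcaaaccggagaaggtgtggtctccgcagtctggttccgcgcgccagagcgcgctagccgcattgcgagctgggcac
Nop16: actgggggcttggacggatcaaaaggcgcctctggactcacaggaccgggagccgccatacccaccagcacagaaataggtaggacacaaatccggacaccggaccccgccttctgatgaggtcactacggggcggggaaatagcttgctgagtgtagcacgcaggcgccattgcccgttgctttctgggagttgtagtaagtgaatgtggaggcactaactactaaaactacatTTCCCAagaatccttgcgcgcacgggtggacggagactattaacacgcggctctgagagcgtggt
Noc3l: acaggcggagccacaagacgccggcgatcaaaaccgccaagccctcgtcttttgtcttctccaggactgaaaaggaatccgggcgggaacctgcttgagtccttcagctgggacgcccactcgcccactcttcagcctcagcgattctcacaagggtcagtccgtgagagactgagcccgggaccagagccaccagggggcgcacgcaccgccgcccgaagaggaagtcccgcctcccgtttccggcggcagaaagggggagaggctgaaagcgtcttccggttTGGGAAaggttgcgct
Tsr1: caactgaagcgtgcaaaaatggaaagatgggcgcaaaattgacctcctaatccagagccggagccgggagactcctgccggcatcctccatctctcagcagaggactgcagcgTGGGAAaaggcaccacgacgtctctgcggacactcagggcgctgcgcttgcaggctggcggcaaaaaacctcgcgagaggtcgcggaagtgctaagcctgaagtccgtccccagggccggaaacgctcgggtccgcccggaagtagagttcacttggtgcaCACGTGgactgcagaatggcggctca
Mybbp1a: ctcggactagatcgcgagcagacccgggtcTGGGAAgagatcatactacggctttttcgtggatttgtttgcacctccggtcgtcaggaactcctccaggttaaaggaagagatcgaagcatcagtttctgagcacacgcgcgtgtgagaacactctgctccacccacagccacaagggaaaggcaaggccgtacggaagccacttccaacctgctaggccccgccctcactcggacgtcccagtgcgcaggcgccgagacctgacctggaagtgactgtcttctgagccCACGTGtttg

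Nop56 held neither motif. Nop16 had TTCCCA starting 15 bases before the start, and Noc3l had TGGGAA starting 34 bases after it. Tsr1 had TGGGAA 137 bases before and CACGTG 24 bases after the start, and Mybbp1a had TGGGAA 220 bases before and CACGTG 40 bases after it. Of the members, 37 had a window. CACGTG was in 9 of them (24.3%), against 8.09% of the windows of 27025 genes and 8.91% of those of 17492 protein-coding genes. These were Nop2, Pes1, Wdr43, Utp4, Utp18, Utp20, Ltv1, Mybbp1a and Tsr1, and in the Rbpj KO minus WT difference the 8 measured ones ran from -0.44 for Tsr1 to 0.12 for Pes1. TGGGAA was in 13 (35.1%), against 28.3% of all genes and 27.4% of protein-coding genes. The measured ones ran from -0.60 for Nop16 to 0.25 for Noc3l in the same difference, which is also the full range of the members. Polr1b (-0.48) and Nhp2 (-0.41) were toward the low end, and Nop58 (-0.21), Nop10 (-0.18) and Rrp9 (-0.17) toward the high end. A match is a run of letters and not a measured binding site.

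Further genes of the pathway, 96 listed and 96 measured, had a median Rbpj KO minus WT difference of -0.20, with 82 below 0 (85.4%, against 60.2% of all genes). Of these genes 29 lay 1.2-fold or more below WT, a share of 30.2% that is near the 24.2% of all genes. As far above WT lay 4 of the 96, against 15.2% of all genes. For the Dll1 KO against WT the median was 0.02, with 45 below 0 (46.9%, against 55.7%), and for the Rbpj KO against the Dll1 KO it was -0.21, with 87 below 0 (90.6%, against 55.1%). Nat10, an acetyltransferase of ribosomal RNA, had a level of 4.33 on the Rbpj KO array, 5.25 on the Dll1 KO array and 5.02 on the WT array, and its Rbpj KO array stood apart (-0.69 against WT and -0.92 against the Dll1 KO). Cd3eap, a subunit of RNA polymerase I despite its name, had 1.23 on the Rbpj KO array, 1.86 on the Dll1 KO array and 1.91 on the WT array. Ddx27, a helicase of large subunit assembly, differed by -0.46 between the Rbpj KO and WT and by -0.56 between the Rbpj KO and the Dll1 KO.

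Other genes of the wider list followed another order of arrays. Nop53, a large subunit factor, was lower in both knockouts, with 0.65 on the Rbpj KO array and 0.78 on the Dll1 KO array, against 1.84 on the WT array, from 1 probe. Above WT in the Rbpj KO were Gnl3l, a GTPase related to Gnl3 (0.76), Nop9, a small subunit factor known from yeast (0.67), and Nvl, an ATPase of large subunit assembly (0.59). All 3 had levels below -1 on every array, and after normexp correction they gave 0.31, 0.38 and 0.24. Above WT in the Dll1 KO were Ubtf, the upstream binding factor of RNA polymerase I (0.43, with probes at 0.15 and 0.70), Nop9 (0.34) and Utp15, a processome protein (0.32, and 0.07 after normexp correction). Below WT there, after Nop53, were Taf1c (-0.34), of the polymerase I selectivity factor, and Wdr18 (-0.31, with probes at -0.28 and -0.33). The Wdr18 probes disagreed for the Rbpj KO against WT, at 0.03 and -0.98.

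The ribosomal proteins themselves were read beside the factors that assemble them. The 77 measured cytosolic ribosomal proteins had a median of -0.09 in the Rbpj KO minus WT difference, close to the -0.07 of all genes, -0.14 in the Dll1 KO minus WT difference and 0.04 between the knockouts. In these comparisons 5, 9 and 1 of them were at least 1.2-fold lower (6.49%, 11.7% and 1.30%, against 24.2%, 12.3% and 19.5% of all genes). Below 0 lay 80.5%, 93.5% and 28.6% of them, against 60.2%, 55.7% and 55.1% of all genes. Many have processed pseudogenes, so their signals may be shared. The 74 measured mitochondrial ribosomal proteins had medians of -0.24 for the Rbpj KO minus WT, -0.13 for the Dll1 KO minus WT and -0.09 between the knockouts, with 31, 8 and 7 of them at least 1.2-fold lower (41.9%, 10.8% and 9.46%, against 24.2%, 12.3% and 19.5% of all genes). Of the mitochondrial ones 71, 65 and 65 lay below 0 (95.9%, 87.8% and 87.8%). The first share stands beside 92.7% of the ribosome biogenesis genes, so a shared direction in the Rbpj KO was not particular to them. Whether the lists differ from each other was not tested.

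**Figure D3:**
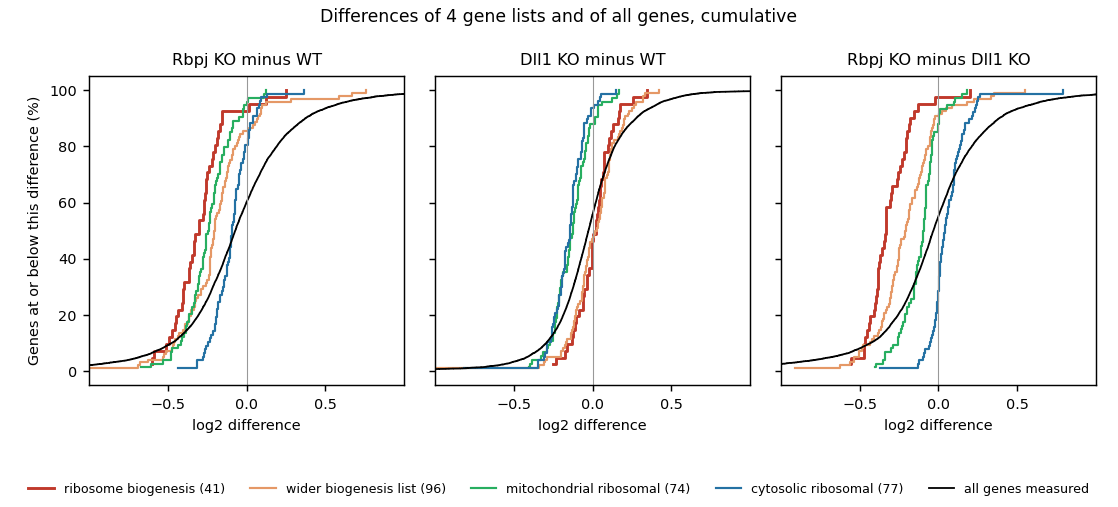
Cumulative share of genes (vertical axis, percent) at or below a log2 difference (horizontal axis, shown from -1 to 1) for the ribosome biogenesis genes, the wider biogenesis list, mitochondrial and cytosolic ribosomal proteins and all genes measured, 1 panel for each comparison. The red curve of the biogenesis genes has medians of -0.31, 0.02 and -0.34, beside -0.07, -0.03 and -0.03 for the black curve of all genes.

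Levels of the Myc network, whose E-box was searched above, are given beside these. Myc had a level of 1.49 on the Rbpj KO array, 1.98 on the Dll1 KO array and 1.94 on the WT array, a Rbpj KO minus WT difference of -0.45, with the Dll1 KO 0.04 above WT. Mxd4, which pairs with Max and acts as a repressor at Myc's sites, had 1.24 on the Rbpj KO array, 0.74 on the Dll1 KO array and 0.37 on the WT array, and both of its probes were higher in each knockout. Mxd1, Mxd3 and Mnt, which likewise pair with Max as repressors, lay below WT in the Rbpj KO, at -0.43, -0.43 and -0.20. Max differed by -0.21, Mlx by -0.19 and Mga by 0.33. Apart from Myc, these genes were chosen for naming after their values were seen, and with Myc they are all 8 that were measured of 11 listed. The part of these genes in the members' levels was not tested.

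Markers of other cell types also differed between the arrays. The summed signal of 10 T cell markers was 0.163% of the signal of all probes on the Rbpj KO array, 0.141% on the Dll1 KO array and 0.141% on the WT array. Of 7 B cell markers 5 were well above background on the Rbpj KO array, 6 on the Dll1 KO array and 4 on the WT array, with sums of 0.00294% in the Rbpj KO, 0.00370% in the Dll1 KO and 0.00379% in WT. Of 6 NK cell markers 4 were in the Rbpj KO, 4 in the Dll1 KO and 3 in WT, with sums of 0.000358% in the Rbpj KO, 0.00137% in the Dll1 KO and 0.00109% in WT. Of these Gzma (-3.07) and Eomes (-1.22), which activated T cells can also express, carry the lower sum of the Rbpj KO against WT; Tyrobp gave -0.24, and Klrb1c was well above background in the Rbpj KO and not in WT. The 2 CD8 T cell genes, well above background on each array, summed to 0.000137% in the Rbpj KO, 0.000216% in the Dll1 KO and 0.000212% in WT. Of 9 myeloid markers 5 were well above background in the Rbpj KO, 6 in the Dll1 KO and 5 in WT, with sums of 0.0125% in the Rbpj KO, 0.00598% in the Dll1 KO and 0.00756% in WT. Ncr1, Klre1, Blk, Cd14 and Adgre1 stayed below that limit on all 3 arrays. Cd68, 1 of the 9 myeloid markers, had no named probe. Itgam carries most of the myeloid sums, with mean probe signals of 9910 in the Rbpj KO, 5170 in the Dll1 KO and 7900 in WT. Its level differed by 0.12 for the Rbpj KO against WT. Of the 5 myeloid markers measured on both of these arrays, 1 lay below 0. The part of other cells in the members' levels was not tested.

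The size of the members' difference depended on the scaling and on the genes counted. Scaled to the spike-in controls added with the RNA, the median of all genes was itself -0.66 for the Rbpj KO against WT, and the members were at -0.89. Scaled to the array median these were -0.24 and -0.47. Relative to the median of all genes the members stood at -0.23 for the Rbpj KO against WT, 0.05 for the Dll1 KO against WT and -0.30 between the knockouts under each of these scalings, which shift all genes alike. After normexp background correction with quantile normalization the same quantities were -0.17, 0.03 and -0.23. Without the filter on dim probes, which adds genes near background to all genes, they were -0.31, 0.13 and -0.45.

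**Figure D4:**
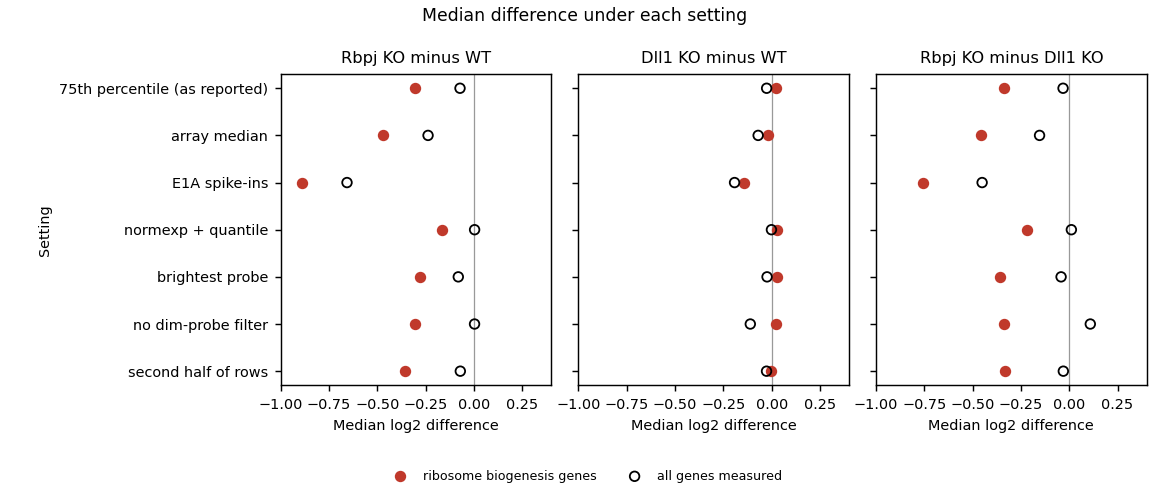
Median log2 difference (horizontal axis) of the ribosome biogenesis genes (filled) and of all genes measured (open) under each of 7 settings (rows), 1 panel for each comparison. The filled points lie left of the open ones in every row of the panels that hold the Rbpj KO array, by 0.23 and 0.30 log2 as reported, and to their right by 0.05 in Dll1 KO minus WT.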

How the data were processed

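RNA of stimulated CD4+ T cells was labelled with Cy3 from 20 ng and hybridised to a 1-colour Agilent mouse array, per the labels. Groups follow the genotype labels, with 1 array each, and the number of arrays limits the precision. The processed signal in the authors' deposited scanner files is a linear intensity from which background and trend were removed per the file headers, made with Feature Extraction 10.7 per the submitters' processing notes (10.7.1.1 per the file headers). Values in the series table the authors deposited are log2, equal to log2 of the processed signal once 1 number per array is added (-7.14 for the Rbpj KO, -7.27 for the Dll1 KO, -7.47 for WT) within 0.01 for 100% of probes, so genes were not centred and a higher value is a brighter spot. The medians of its columns were -3.28, -3.40 and -3.44 in the same order.

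Outlier spots were left out (139 in the Rbpj KO, 163 in the Dll1 KO, 143 in WT), spots of a probe were averaged, and each array's 75th percentile was subtracted after log2. Of 55678 probes, 27507 were named through RefSeq accessions in a table of assembly GRCm38.p6; the array was designed on mm9 per the file headers, so no probe coordinates are given. Gene levels average those probes that passed well above background on 1 array or more, and differences are given where a probe was well above background on both arrays. A marker list's summed signal is a share of all probes' signal on that array. Alternatives were array median and spike-in scaling, normexp with offset 50 and quantile normalization (limma 3.58.1 in R 4.3.3), the series table, 3 probe rules, rows 193 to 384 alone, and outlier spots kept. The steps were tested on simulated data. Tables were made with pandas 2.3.3 in Python 3.11.15.

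The members and gene lists were chosen with earlier results of these data known. Members named with full values are those at least 1.5-fold apart, the 6 largest differences each way per comparison and the highest mean level per role; other genes named are Rbpj, Dll1, Cd3e, Cd4, Myc and, from the wider list, the 3 largest each way. Any further gene was named after its values were seen.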

Additional observations from a re-analysis of the deposited data

How the results depend on the processing

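The median difference of the members kept its direction for the Rbpj KO against WT and against the Dll1 KO under every alternative run. With spike-in scaling it was -0.89 and -0.75, with 41 members 1.2-fold or more below WT, where 87.6% of all genes were too; for the Dll1 KO against WT 37 members then lay below 0 (82.4% of all genes), with 8 past 1.2-fold downward (34.9% of all genes) and 0 upward. Scaled to the array median, 2 members lay 1.2-fold or more below WT in the Dll1 KO, against 16.1% of all genes. Normexp with quantile normalization left 10 members of the Rbpj KO 1.2-fold or more below WT (11.7% of all genes) and 17 as far below the Dll1 KO (10.3%), with 1, Noc3l, as far above in each. It was run on the median spot signal, chosen after seeing that the files hold no mean signal. Without the filter on dim probes, which brings in Utp18, 1 member of the Rbpj KO lay 1.2-fold or more above WT and 2 of the Dll1 KO did; with the brightest probe per gene it was 0 in the Dll1 KO. In rows 193 to 384, which hold probes of 19 members, 18 lay below 0 for the Rbpj KO against WT (59.7% of all genes there), 10 for the Dll1 KO against WT (55.9%) and 19 between the knockouts (54.8%). There 13 members of the Rbpj KO lay 1.2-fold or more below WT (23.4% of all genes) and 13 below the Dll1 KO (19.0%), 1 of the Dll1 KO lay as far below WT (11.7%), and 1 (Pes1, by its dim probe) of the Rbpj KO as far above WT. Spike-in scaling turned Cd4 (0.38) to -0.21 for the Rbpj KO against WT, and Nop9 and Nvl to -0.081 and -0.063 for the Rbpj KO against the Dll1 KO; Wdr18 turned to 0.036 in rows 193 to 384 for the Rbpj KO against WT. Cd3e gave -0.07 for the Rbpj KO against WT. Of 1257 values of named genes and lists under an alternative, 1141 moved by less than a set limit and 112 by more (95 of them with spike-in scaling). The 4 just given turned sign from a difference of 1.2-fold or more. Smaller differences that turned sign, such as those of Noc3l, Pes1 and Ltv1, are counted by how far they moved. The cause was not tested. The limit was 0.24 log2, the highest of the arrays' 95th percentiles of the standard deviation between repeated spots, or a ratio of 1.5 for counts. It is wide: the move of the members' median from -0.31 to -0.17 with normexp, for the Rbpj KO against WT, lay within it. The series table equals the processed signal but for 1 number per array, so under it no value could pass the limit. No paired analysis was possible because each genotype has 1 array, so no replicate could be left out either.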

Other observations

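Nuclear machinery next to ribosome assembly was read in the same way, with lists chosen when earlier results of these data were known. The RNA exosome trims the ends of ribosomal RNA precursors. Its 12 genes had a median Rbpj KO minus WT difference of -0.20, with 11 below 0 (91.7%, against 60.2% of all genes) and 4 at least 1.2-fold lower (33.3%, against 24.2%). The median Dll1 KO minus WT difference was -0.03, with 8 below 0 (66.7%, against 55.7%). Exosc10, a catalytic subunit of the nucleus, gave -0.48 for the Rbpj KO and -0.04 for the Dll1 KO against WT. Exosc9 had a level of 4.16 on the Rbpj KO array, 4.94 on the Dll1 KO array and 4.53 on the WT array, from 1 probe; it was named after its values were seen, as were the other genes of this paragraph.

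RNA polymerase III makes the smallest ribosomal RNA and the tRNAs. Its 19 subunits and factors had a median Rbpj KO minus WT difference of -0.15, with 15 below 0 (78.9%, against 60.2% of all genes) and 5 at least 1.2-fold lower (26.3%, a share near the 24.2% of all genes). For the Dll1 KO against WT the median was -0.06, with 13 below 0 (68.4%, against 55.7%) and 4 at least 1.2-fold lower (21.1%, against 12.3%). Polr3d, also named after its values were seen, had a level of 0.01 on the Rbpj KO array, 0.23 on the Dll1 KO array and 0.55 on the WT array.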
